A study of Mus musculus with 10 samples.

Results

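The cadherins are cell adhesion proteins that hold neighbouring membranes together in the presence of calcium. The genes described here are the numbered cadherin genes (symbols *Cdh* followed by a number only) and the numbered, non-clustered protocadherin genes (symbols that begin with *Pcdh* and a number), chosen by their GENCODE M21 symbols. There were 35 such genes, 23 cadherins and 12 protocadherins, among the 53447 genes listed for each library. RNA was sequenced from the whole cerebellum of 5 mice homozygous for the *Dscam* del17 deletion (Dscamdel17/del17, labelled DscamKO) and 5 control mice (labelled Control), all at postnatal day 21 (P21) and all labelled as the BALB/c strain, with 1 library per mouse. The deletion is a spontaneous, constitutive one, carried by every cell of the mutant, and no agent was given to either genotype. Mice of both sexes were used in the study and the labels give no sex. The values are TPM, a transcript level scaled per library and per transcript length, so genes can be compared with each other, while the depth of each library is unknown.

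Classical cadherins bind like molecules on the opposite cell through their outermost domain and are anchored to actin inside the cell by beta-, p120- and alpha-catenin. Type I members (such as N- and E-cadherin) carry a conserved HAV motif in that domain and adhere strongly, whereas type II members bind through a wider interface and are expressed in restricted, partly overlapping sets of neurons. The delta protocadherins have more extracellular repeats, lack the catenin-binding tail and signal through partners such as protein phosphatase 1 (delta-1 group) and the WAVE actin-regulating complex (delta-2 group). DSCAM, an immunoglobulin-superfamily adhesion molecule with roles in neurite and synapse patterning, is known from the mouse retina to act against cadherin-dependent adhesion.

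*Dscam* itself (chr16:96590840-97170752, minus strand, GRCm38) was checked first. Its level was 5.11, 5.42, 4.53, 3.73 and 3.05 TPM in DscamKO 1 to 5, against 8.04, 8.43, 6.79, 9.05 and 6.29 TPM in Control 1 to 5. Every DscamKO library was below every Control library (log2 fold change -0.82, 95% interval -1.33 to -0.32, limma, Benjamini-Hochberg adjusted p = 0.779; exact two-sided permutation p = 0.0079, the smallest that 5 against 5 libraries can give). The libraries were otherwise uneven: 15623 genes reached 0.5 TPM in Control 5, against 17130 to 17539 in the DscamKO libraries and up to 17763 in the Control libraries, and mitochondrially encoded mRNA summed to 15206 TPM in Control 5 and to 23124 TPM in Control 3, with the highest library at 44973 TPM. *Xist*, a transcript of female cells, was at 65.6 TPM in DscamKO 5 and 88.3 TPM in Control 1. In every other library it was at most 0.086 TPM. In bulk tissue, fewer cells of a type and less RNA per cell cannot be told apart. Granule and Purkinje cell markers were high in all libraries (1557 to 1773 TPM and 2702 to 3293 TPM summed in DscamKO, 1513 to 2078 TPM and 2724 to 3333 TPM summed in Control). These marker genes came from lists of known cell type markers.

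The family in this tissue was carried by a few genes. Averaged over the 10 libraries, 5 members reached 20 TPM, 7 reached 10 TPM, 15 reached 5 TPM, and 12 were below 1 TPM. *Cdh22* gave 18.3% of the summed level of all 35 genes, *Cdh22* and *Cdh15* together 32.7%, and with *Pcdh1*, *Cdh2* and *Pcdh9* added, 62.5%. By group, the 13 type II cadherins held 41.7% of the sum, the 5 type I cadherins 27.5%, the 4 delta-1 protocadherins 21.7%, the 5 delta-2 protocadherins 5.55%, the 3 other protocadherins 2.52% and the 5 other cadherins 1.08%. The sum over all members was 259.1 to 291 TPM (median 286.0) in DscamKO and 253 to 328 TPM (median 304) in Control, with overlapping groups. The lowest Control sum was that of Control 5. The listed TPM of all genes did not add up to the same total in each library. That total was 684771 in Control 5 and 757307 to 838532 in the other Control libraries, against 775148 to 805869 in DscamKO. The member sums were not rescaled for this, so their overlap depends in part on these totals.

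**Figure D1:**
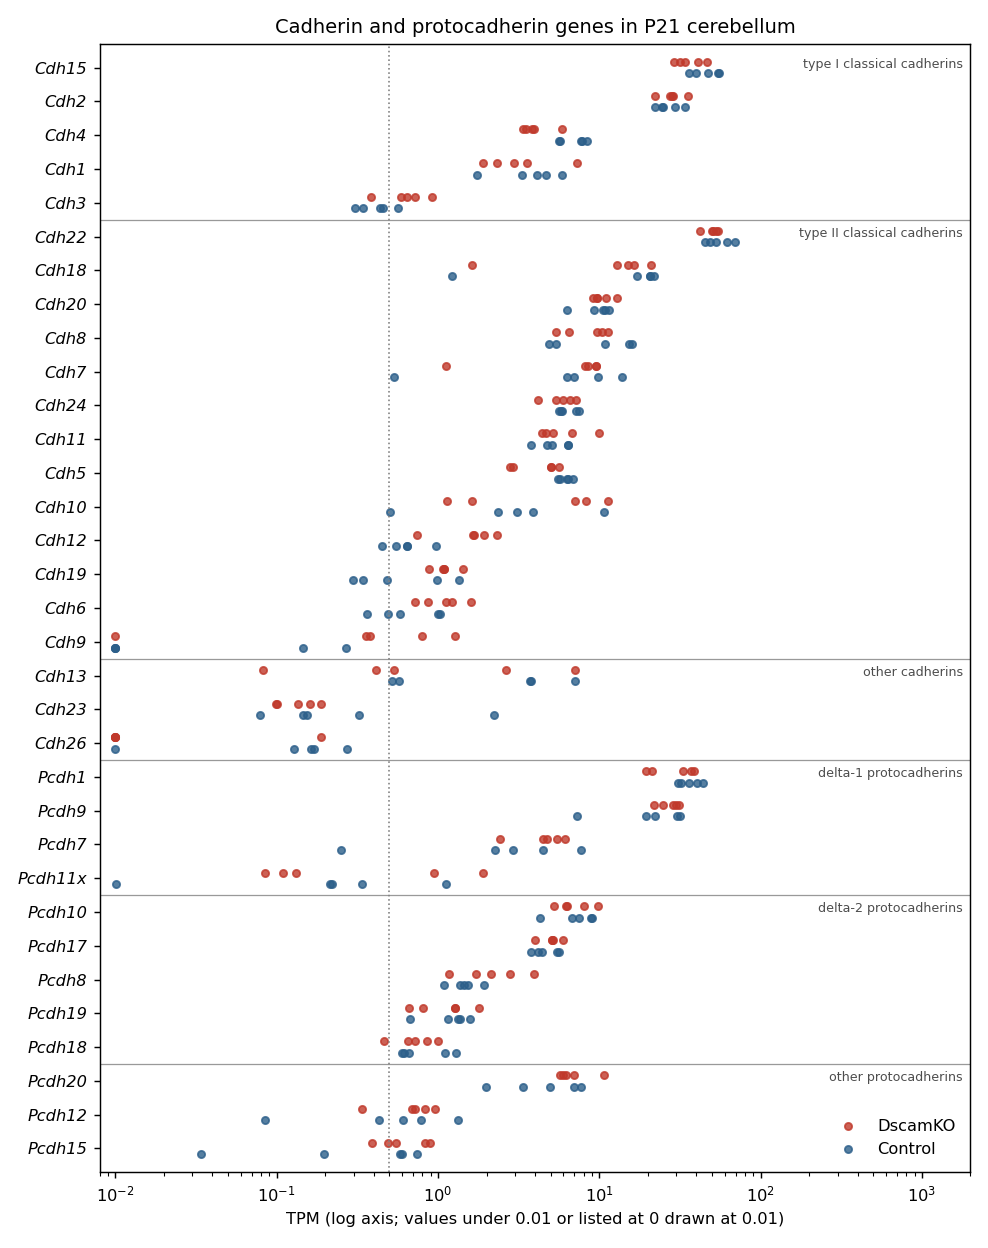
Level of each member in TPM on a log axis, with DscamKO (red) above Control (blue) in each line and 1 point per library; the dotted line marks 0.5 TPM, values under 0.01 are drawn at 0.01, and *Cdh16* and *Cdh17*, listed at 0 in all 10 libraries, are not drawn. *Cdh22*, *Cdh15*, *Pcdh1*, *Cdh2* and *Pcdh9* stand highest, and the points of the genotypes overlap for every member.

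**Figure D2:**
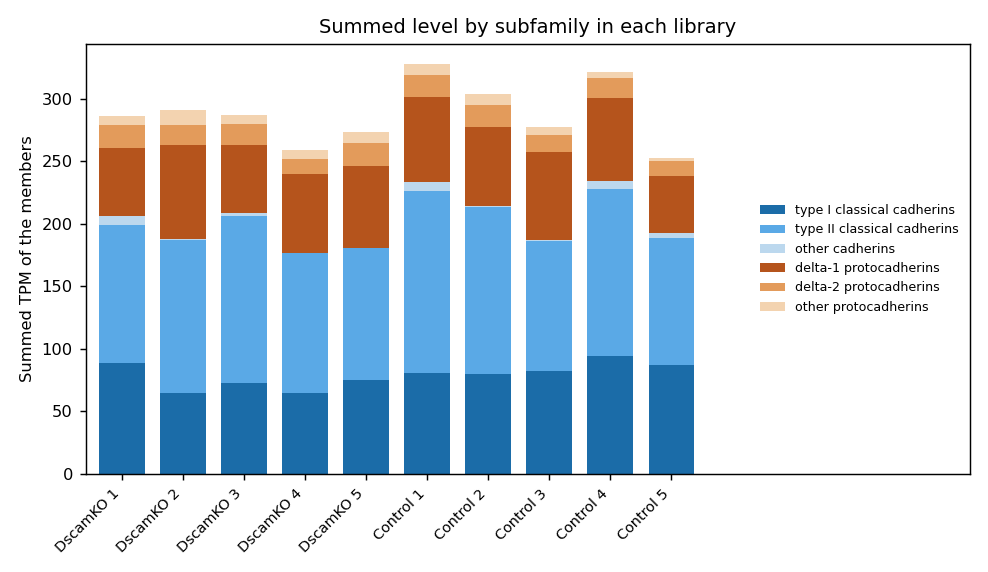
Summed TPM of the members in each library, stacked by subfamily. The whole bar lies between 259.1 and 291 TPM in the DscamKO libraries and between 253 and 328 TPM in the Control libraries, and type II cadherins are the largest block in every bar. The bars were not rescaled to an equal listed total.

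Start-site sequences were available for 22 of the 35 members (RefSeq, GRCm38.p6), each covering 250 bases before to 50 bases after an annotated start. They are shown for the 2 most highly expressed members and for a member close to 0, since these differ most in level, with each CG dinucleotide in capitals. The *Cdh22* window lies at chr2:165234688-165234987 (minus strand), that of *Cdh15* at chr8:122848124-122848423 (plus strand) and that of *Cdh26* at chr2:178430265-178430564 (plus strand). The *Cdh15* window lies inside the gene as placed by GENCODE M21 (from chr8:122847966) and does not cover that start. Its CG count below may therefore not be that of the sequence around that start.
Cdh22: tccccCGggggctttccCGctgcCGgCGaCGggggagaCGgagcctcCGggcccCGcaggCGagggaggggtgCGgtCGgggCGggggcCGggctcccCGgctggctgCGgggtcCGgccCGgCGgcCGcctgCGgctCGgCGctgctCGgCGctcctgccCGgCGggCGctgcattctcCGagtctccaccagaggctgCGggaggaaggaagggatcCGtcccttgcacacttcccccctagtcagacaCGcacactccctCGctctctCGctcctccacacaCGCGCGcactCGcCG
Cdh15: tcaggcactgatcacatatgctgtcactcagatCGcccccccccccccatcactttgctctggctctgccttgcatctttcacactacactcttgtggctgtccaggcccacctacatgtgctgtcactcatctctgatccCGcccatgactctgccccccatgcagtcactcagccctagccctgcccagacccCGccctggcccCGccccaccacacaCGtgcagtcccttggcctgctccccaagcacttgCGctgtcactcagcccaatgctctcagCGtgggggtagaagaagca
Cdh26: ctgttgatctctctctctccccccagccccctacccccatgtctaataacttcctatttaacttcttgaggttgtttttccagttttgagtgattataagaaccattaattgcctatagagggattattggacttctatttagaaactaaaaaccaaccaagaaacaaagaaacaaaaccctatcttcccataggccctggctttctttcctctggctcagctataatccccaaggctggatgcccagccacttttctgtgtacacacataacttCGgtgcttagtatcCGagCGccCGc
The *Cdh22* window held 38 CG dinucleotides, more than 95% of the 32851 promoters in the table, whereas that of *Cdh15*, the next gene in level, held 7 and that of *Cdh26* held 4. The letters searched were CG, which read the same on both strands, and 94.6% of all promoters of this length held at least 1, with a median of 7. Over the matched members, those at 5 TPM or more (n = 10) had 4 to 38 CG dinucleotides (median 18.5) and those under 1 TPM (n = 6) had 4 to 23 (median 8). For genes with several windows, only the first by position was counted. These counts overlap between high and low members, and are a description only.

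Of the 35 members, 29 passed the filter (0.5 TPM in at least 5 libraries) and were compared between the genotypes with limma on log2(TPM + 0.1) over 17168 genes. None of the 29 passed an adjusted p of 0.05, a threshold that 0% of all genes tested passed. At an unadjusted p of 0.05, 3 members were called, *Cdh4* and *Cdh5* with a lower and *Cdh12* with a higher level in DscamKO, against 953 genes or 5.55% of all genes tested. No member had groups that did not overlap, against 209 genes or 1.22% of all genes tested. The log2 fold change was above 0 for 16 members and below 0 for 13, with a median of 0.114, beside 9613 genes above and 7555 below and a median of 0.048 over all genes. With a filter of 1 TPM in 5 libraries, 23 members were tested and 11 were above 0. Their median was then -0.026, beside 0.043 over all genes, so the sign of the members' median depended on the filter. The count of 3 is small, and the median of the members was close to that of all genes. The intervals of 11 members lay within a log2 change of 1 in either direction, so for the other 18 members a change of that size was not excluded by these libraries.

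**Figure D3:**
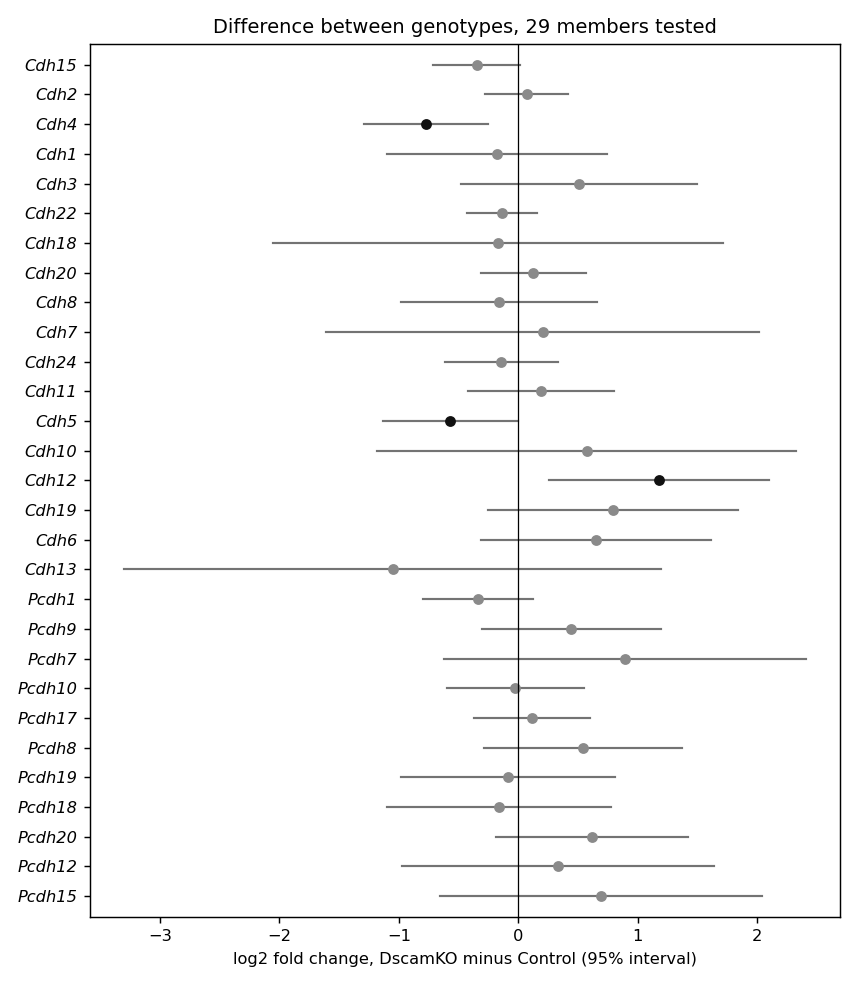
Log2 fold change of each tested member, DscamKO minus Control, on log2(TPM + 0.1), with its 95% interval from limma, ordered by subfamily; black points have an unadjusted p under 0.05. The intervals of *Cdh4*, *Cdh5* and *Cdh12* exclude 0 before adjustment, and that of *Cdh13*, from -3.30 to 1.196, is among the widest.

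Type I cadherins were led by *Cdh15* (M-cadherin, first described in muscle; chr8:122847966-122867397, plus strand) and *Cdh2* (N-cadherin, the main classical cadherin of neurons; chromosome 18). *Cdh15* had 41.2, 28.95, 34.2, 31.8 and 46.3 TPM in DscamKO 1 to 5, against 39.8, 35.8, 47.3, 54.9 and 54.5 TPM in Control 1 to 5. Of the DscamKO values, 3 were below the lowest Control value and 2 lay inside the Control range (36.5 ± 7.13 TPM in DscamKO, 46.5 ± 8.58 TPM in Control, SD, n = 5 each; log2 fold change -0.35, 95% interval -0.715 to 0.017, limma adjusted p = 0.779; exact permutation p = 0.0794). Beside it, 5 of the 6 granule cell markers had a log2 fold change below 0 (median -0.123) and 2 of the 6 had an unadjusted p under 0.05. The part of granule cells in the *Cdh15* values was not tested. *Cdh2* had 35.6, 28.2, 28.8, 27.4 and 22.1 TPM in DscamKO, against 29.7, 34.1, 22.3, 24.5 and 24.8 TPM in Control. The groups of *Cdh2* overlapped over nearly their whole ranges (log2 fold change 0.07, 95% interval -0.28 to 0.42, limma adjusted p = 0.923).

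*Cdh4* (R-cadherin, an N-cadherin relative named for the retina; ENSMUSG00000000305, chr2:179442431-179899373, plus strand) had the smallest p of the family. It had 3.83, 3.94, 5.86, 3.38 and 3.53 TPM in DscamKO 1 to 5, against 7.76, 5.73, 7.74, 8.45 and 5.59 TPM in Control 1 to 5. In DscamKO, 4 libraries were below all Control libraries, and DscamKO 3 lay inside the Control range. The means were 4.11 ± 1.002 TPM in DscamKO and 7.05 ± 1.304 TPM in Control (SD, n = 5 each), a log2 fold change of -0.77 (standard error 0.237, 95% interval -1.29 to -0.26, unadjusted p = 0.00707, limma adjusted p = 0.779; exact permutation p = 0.0238). The sign of *Cdh4* and an unadjusted p under 0.05 held in each of the 23 alternative settings, with log2 fold changes of -0.91 to -0.66, but its adjusted p did not pass the threshold. Of the other type I members, *Cdh1* (E-cadherin, of epithelia) averaged 3.61 TPM in DscamKO and 3.94 TPM in Control, with single values of 1.90 to 7.31 TPM in DscamKO and 1.75 to 5.90 TPM in Control. *Cdh3* (P-cadherin) was near the filter, at 0.652 ± 0.194 TPM in DscamKO and 0.422 ± 0.103 TPM in Control (SD, n = 5 each), and it passed the filter with 4 DscamKO libraries and 1 Control library, so its difference carries no weight here. Over the type I group 2 of 5 log2 fold changes were above 0, with a median of -0.18.

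The type II cadherins had the most members in use, and 12 of 13 were tested (7 above 0, 5 below, median 0.157). The highest member of the whole family was *Cdh22* (PB-cadherin, known from pituitary and brain; chr2:165111507-165234853, minus strand). Its level was 50.5, 54.3, 49.7, 42.1 and 53.2 TPM in DscamKO, against 53.3, 48.3, 45, 62.0 and 68.9 TPM in Control. All but 1 of the DscamKO values lay inside the Control range (log2 fold change -0.14, 95% interval -0.43 to 0.15, limma adjusted p = 0.817; exact permutation p = 0.3095). Its interval is among the narrow ones of the family. *Cdh20*, *Cdh8* and *Cdh24*, type II cadherins at 5 TPM or more, overlapped likewise: *Cdh20* had 9.18 to 12.8 TPM in DscamKO and 6.33 to 11.4 TPM in Control, *Cdh8* 5.37 to 11.4 TPM in DscamKO and 4.89 to 16.0 TPM in Control, and *Cdh24* 4.17 to 7.20 TPM in DscamKO and 5.62 to 7.49 TPM in Control. *Cdh11*, a cadherin of mesenchymal cells and neurons, had 4.41 to 10.03 TPM in DscamKO and 3.75 to 6.43 TPM in Control.

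*Cdh12*, a brain cadherin with a gene of 1140 kb (chr15:20449265-21589533, plus strand), was low but had the largest log2 fold change of the tested members in the direction of DscamKO. It had 1.64, 1.67, 1.93, 2.31 and 0.744 TPM in DscamKO 1 to 5, against 0.975, 0.639, 0.451, 0.639 and 0.552 TPM in Control 1 to 5. In DscamKO, 4 libraries were above all Control libraries, and DscamKO 5 lay inside the Control range. The means were 1.66 ± 0.577 TPM in DscamKO and 0.651 ± 0.197 TPM in Control (SD, n = 5 each), a log2 fold change of 1.18 (standard error 0.421, 95% interval 0.26 to 2.10, unadjusted p = 0.0162, limma adjusted p = 0.779; exact permutation p = 0.0159). Its annotated exons overlap those of *Gm49685* on the same strand, and reads shared between them cannot be told apart in TPM. Beside it, the 4 tested genes of the brainstem and midbrain marker list (of 8, with *Chat*, *Hoxb5* and *Hoxa5* among those under 0.1 TPM) were all above 0 (median 1.29, 2 of them at an unadjusted p under 0.05), with a sum over the list of 10.1 to 28.5 TPM in DscamKO and 6.35 to 19.2 TPM in Control. The part of such tissue in the *Cdh12* values was not tested.

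*Cdh5* encodes VE-cadherin, the cadherin of endothelial cell junctions (chr8:104101625-104144511, plus strand). Its level was 5.05, 2.93, 4.99, 2.79 and 5.64 TPM in DscamKO 1 to 5, against 6.39, 6.86, 6.33, 5.52 and 5.74 TPM in Control 1 to 5. In DscamKO, 4 libraries were below all Control libraries, and DscamKO 5 lay inside the Control range. The means were 4.28 ± 1.32 TPM in DscamKO and 6.17 ± 0.535 TPM in Control (SD, n = 5 each), a log2 fold change of -0.57 (standard error 0.259, 95% interval -1.14 to -0.005, unadjusted p = 0.0483, limma adjusted p = 0.779; exact permutation p = 0.0159). An unadjusted p under 0.05 held in 12 of the 23 alternative settings. It was lost without DscamKO 2, DscamKO 4, any 1 of Control 1 to 4, or Control 3 and 5 together. It was also lost with 1 TPM added, a filter of any TPM above 0, the *Xist* level as a covariate, or the replicate number as a block. The log2 fold changes of *Cdh5* were -0.71 to -0.44 over all settings. The 8 other endothelial markers of the list were all tested. They summed to 86.7 to 101 TPM (median 94.7) in DscamKO and 75 to 124 TPM (median 110) in Control. The lowest sum, 75 TPM, was that of Control 5. The other Control libraries had 104 to 124 TPM, all higher than the highest DscamKO sum. By limma, 3 of these markers were higher and 5 lower in DscamKO (median -0.116), and 0 had an unadjusted p under 0.05. *Pcdh12*, another endothelial member of the family, had 0.340 to 0.954 TPM in DscamKO and 0.085 to 1.33 TPM in Control, with an opposite sign (log2 fold change 0.33, 95% interval -0.97 to 1.64, limma adjusted p = 0.897; -0.10 without Control 2). The part of vessel content in the *Cdh5* values was not tested.

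**Figure D4:**
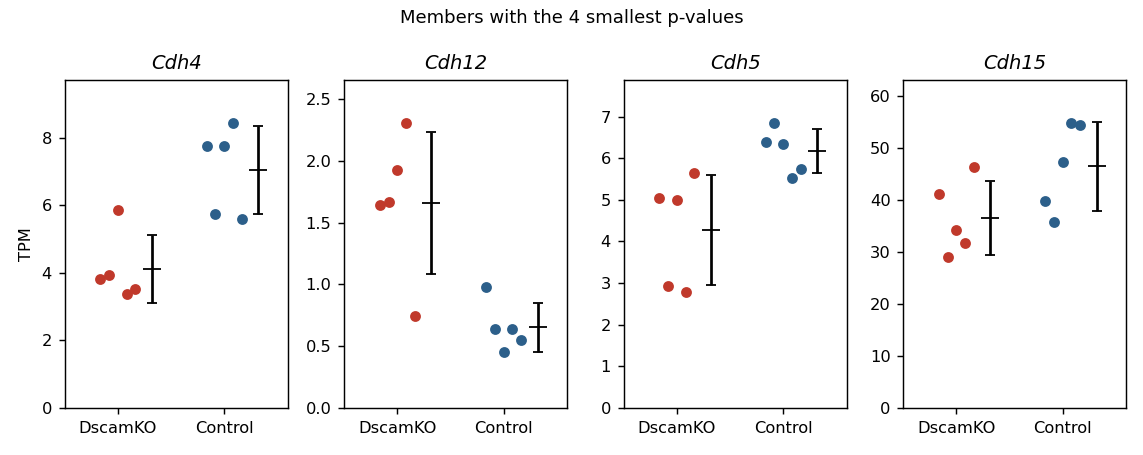
TPM per library of the 4 members with the smallest p values, with DscamKO left of Control and the mean and SD of 5 libraries per genotype. For *Cdh4*, *Cdh5* and *Cdh12*, 4 of the 5 DscamKO points lie outside the Control range and 1 lies within it; for *Cdh15*, 3 lie below the Control range.

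Low type II members were present in both genotypes. *Cdh19*, a cadherin of glial lineages, had 0.885 to 1.43 TPM in DscamKO and 0.297 to 1.35 TPM in Control, and *Cdh6* (K-cadherin, of kidney and brain) had 0.723 to 1.61 TPM in DscamKO and 0.365 to 1.03 TPM in Control. Both groups overlapped. *Cdh19* reached 0.5 TPM in every DscamKO library but in Control only in Control 1 and Control 2 (0.985 and 1.35 TPM), so the DscamKO libraries alone carried it past the filter. Beside *Cdh19*, the 8 oligodendrocyte markers were all above 0 (median 0.270, 3 of them at an unadjusted p under 0.05). Their sums were 7261 to 8489 TPM in DscamKO and 5722 to 8300 TPM in Control. The 5722 TPM was Control 5, and the other Control libraries had 7342 to 8300 TPM. The part of oligodendrocytes in the *Cdh19* values was not tested. *Cdh9*, known in mouse for synapses of the hippocampal mossy fibres, was not tested. It was listed at 0 in DscamKO 2 and reached 0.356 to 1.28 TPM in the other DscamKO libraries, against 0.268 and 0.146 TPM in Control 1 and 2 and 0 in the other Control libraries.

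Several members varied more between mice of the same genotype than between genotypes. *Cdh18*, a neuronal type II cadherin (chr15:22549022-23474418, plus strand) and the sixth gene of the family by level, had 15.2, 12.9, 21.1, 16.5 and 1.62 TPM in DscamKO 1 to 5, against 21.7, 20.7, 17.1, 20.6 and 1.22 TPM in Control 1 to 5. Replicate 5 of either genotype was far below the rest. The log2 fold change of *Cdh18* was -0.17 (95% interval -2.05 to 1.72, limma adjusted p = 0.966), and it was -0.95 without Control 5 and 0.48 without DscamKO 5. *Cdh7* had 8.49, 9.49, 9.55, 1.13 and 8.20 TPM in DscamKO, against 9.85, 13.8, 6.30, 6.98 and 0.532 TPM in Control, so here the low libraries were DscamKO 4 and Control 5. *Cdh10* had 1.63, 7.05, 8.25, 11.3 and 1.14 TPM in DscamKO, against 10.7, 2.34, 3.09, 3.87 and 0.505 TPM in Control, with low values in DscamKO 1, DscamKO 5 and Control 5. Control 5 was thus the lowest Control library for each of these genes, whereas the low DscamKO libraries differed from gene to gene.

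*Cdh13* (T-cadherin, held in the membrane by a lipid anchor and lacking a cytoplasmic tail; chr8:118283733-119324921, plus strand) had the widest spread within a genotype among the 29 tested members. It had 7.10, 0.413, 2.62, 0.532 and 0.082 TPM in DscamKO 1 to 5, against 7.10, 0.520, 0.575, 3.71 and 3.77 TPM in Control 1 to 5. High and low libraries occurred in both genotypes (log2 fold change -1.05, 95% interval -3.30 to 1.196, limma adjusted p = 0.818; exact permutation p = 0.381). This value was -1.75 without DscamKO 1, -0.43 without DscamKO 5 and -0.61 without Control 1. A spread of at least 8-fold within a genotype, a limit chosen after the values were seen, occurred in 7 of the 29 tested members (24.1%; *Cdh7*, *Cdh10*, *Cdh13*, *Cdh18*, *Pcdh7*, *Pcdh12* and *Pcdh15*) and in 1411 of the 13538 coding genes tested (10.4%). At mean levels of 2 TPM or more it occurred in 5 of 20 members (25.0%) and 608 of 11830 coding genes (5.14%), and among those that also span at least 150 kb, in 5 of 11 members (45.5%) and 126 of 976 coding genes (12.9%). The members have long genes, with a median span of 123.3 kb against 24.4 kb for the coding genes tested. Above the 150 kb limit the members still had the longer median span, so that comparison was not matched for length. The shortest of the 5 members with this spread, *Cdh7* at 157.7 kb, lies just above the limit. The part of gene length in the spread was not tested beyond these counts.

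**Figure D5:**
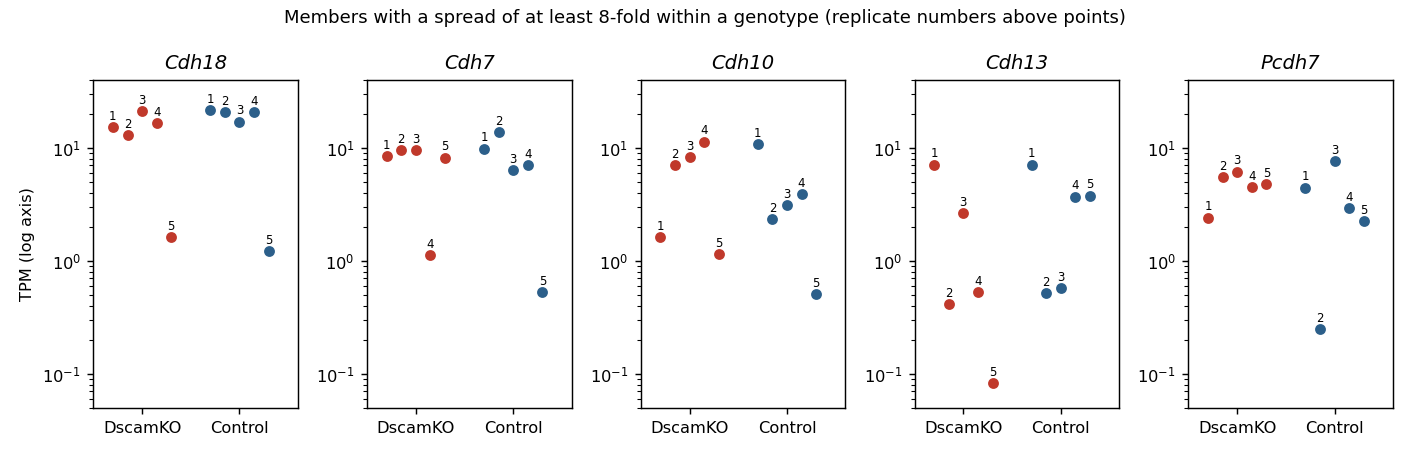
TPM per library on a log axis for the 5 members whose mean reached 2 TPM and that had a spread of at least 8-fold within a genotype, DscamKO left of Control, with the replicate number above each point. DscamKO 5 and Control 5 are low for *Cdh18* at 1.62 and 1.22 TPM, whereas for *Pcdh7* the low library is Control 2 at 0.251 TPM.

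Of the other cadherins, only *Cdh13* was tested. *Cdh23*, which with *Pcdh15* forms the tip links of hair cells, stayed at 0.099 to 0.188 TPM in DscamKO and at 0.079 to 0.325 TPM in 4 Control libraries, with 2.23 TPM in Control 4. *Cdh26* was listed at 0 in 4 DscamKO libraries and 1 Control library and reached at most 0.187 TPM in DscamKO and 0.273 TPM in Control. *Cdh16* (of kidney) and *Cdh17* (of liver and intestine) were listed at 0 in all 10 libraries.

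Among the delta-1 protocadherins, *Pcdh1* (chromosome 18) and *Pcdh9* (chr14:93013410-93890679, minus strand) were among the 5 highest members of the family. *Pcdh1* had 21.2, 38.5, 19.4, 33.1 and 37.1 TPM in DscamKO 1 to 5, against 31.96, 30.7, 40.2, 43.9 and 36.1 TPM in Control 1 to 5. The low values were DscamKO 1 and DscamKO 3, and the other 3 DscamKO libraries lay inside the Control range (log2 fold change -0.34, 95% interval -0.80 to 0.13, limma adjusted p = 0.779; exact permutation p = 0.222; log2 fold change -0.19 without DscamKO 3). *Pcdh9* had 29.7, 31.1, 28.6, 24.9 and 21.8 TPM in DscamKO, against 31.6, 30.5, 22.3, 19.5 and 7.22 TPM in Control. All 5 DscamKO values lay inside the Control range, whose lowest value was Control 5 (log2 fold change 0.45, 95% interval -0.30 to 1.19, limma adjusted p = 0.785; exact permutation p = 0.333). Without Control 5 the log2 fold change of *Pcdh9* was 0.085. *Pcdh7* had 2.41 to 6.15 TPM in DscamKO and 0.251 to 7.68 TPM in Control. *Pcdh11x*, on the X chromosome, was not tested and had 0.085 to 1.89 TPM in DscamKO and 0.010 to 1.12 TPM in Control.

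The delta-2 protocadherins were all tested, with 2 above 0, 3 below and a median of -0.026. *Pcdh10*, whose protein binds the WAVE complex (chr3:45378398-45435623, plus strand), had 9.80, 6.18, 6.31, 5.22 and 8.03 TPM in DscamKO, against 7.51, 8.91, 6.78, 9.06 and 4.28 TPM in Control. The groups of *Pcdh10* overlapped broadly (log2 fold change -0.03, 95% interval -0.60 to 0.55, limma adjusted p = 0.980). *Pcdh17* (chr14:84443563-84539002, plus strand) was the steadiest of them, at 5.07 ± 0.699 TPM in DscamKO and 4.69 ± 0.812 TPM in Control (SD, n = 5 each; log2 fold change 0.11, 95% interval -0.37 to 0.60, limma adjusted p = 0.906). *Pcdh8* (arcadlin, induced by neuronal activity; chr14:79766775-79771312, minus strand) had 1.16, 3.92, 2.12, 1.71 and 2.81 TPM in DscamKO, against 1.93, 1.37, 1.54, 1.09 and 1.46 TPM in Control. For *Pcdh8*, 3 of the DscamKO values were above the Control range and 2 within it (log2 fold change 0.54, 95% interval -0.29 to 1.37, limma adjusted p = 0.779; exact permutation p = 0.127; log2 fold change 0.34 without DscamKO 2). *Pcdh19*, the X-linked gene mutated in a human epilepsy of girls, had 0.664 to 1.79 TPM in DscamKO and 0.668 to 1.58 TPM in Control, and *Pcdh18* had 0.465 to 1.001 TPM in DscamKO and 0.598 to 1.296 TPM in Control.

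The 3 other protocadherins all had log2 fold changes above 0 (median 0.618), none past the threshold. *Pcdh20* (chr14:88464743-88471396, minus strand) had 5.96, 10.8, 6.22, 5.68 and 6.97 TPM in DscamKO, against 6.97, 7.67, 4.97, 3.35 and 1.98 TPM in Control. DscamKO 2 was above and all other DscamKO libraries were within the Control range (log2 fold change 0.62, 95% interval -0.19 to 1.42, limma adjusted p = 0.779; exact permutation p = 0.175; log2 fold change 0.33 without Control 5). *Pcdh15* (chr10:73099342-74649737, plus strand) had 0.392 to 0.887 TPM in DscamKO and 0.034 to 0.737 TPM in Control (log2 fold change 0.69, 95% interval -0.66 to 2.04, limma adjusted p = 0.799; 0.27 without Control 5). Exons of 6 members overlap a gene on the opposite strand (*Cdh8*, *Cdh9*, *Pcdh7*, *Pcdh8*, *Pcdh10* and *Pcdh19*); the strand setting of the counting is not given in the sources used here, so reads of the partner gene may be included in their values.

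The partners of these adhesion molecules were taken from a list of 36 genes for catenins, other cytoplasmic partners, the WAVE complex and distant cadherin relatives, of which 33 were tested (*Ctnna3*, *Celsr1* and *Dchs2* were not). Their log2 fold changes were above 0 for 18 and below 0 for 15, with a median of 0.016; 0 had an adjusted p under 0.05, 3 an unadjusted p under 0.05 (5.55% of all genes tested) and 2 had groups that did not overlap (1.22% of all genes tested). *Ctnnb1*, which encodes beta-catenin, had 202, 236, 222, 263 and 266 TPM in DscamKO 1 to 5, against 186, 172, 144, 194 and 148 TPM in Control 1 to 5. Every DscamKO library was above every Control library (log2 fold change 0.50, standard error 0.115, 95% interval 0.245 to 0.75, unadjusted p = 0.00105, limma adjusted p = 0.779; exact permutation p = 0.0079). *Fat2*, a giant cadherin of granule cell axons that is also in the granule cell list, had 97.5, 104, 109, 104 and 116 TPM in DscamKO, against 142, 131, 130.4, 155 and 125 TPM in Control. Every DscamKO library was below every Control library (log2 fold change -0.36, 95% interval -0.56 to -0.17, unadjusted p = 0.00168, limma adjusted p = 0.779; exact permutation p = 0.0079). *Fat1*, another giant cadherin, had 128, 116, 90.3, 90.5 and 89.6 TPM in DscamKO, against 52.3, 83.5, 101, 57.5 and 41.7 TPM in Control. Control 3 lay inside the DscamKO range and the other Control libraries below it (log2 fold change 0.67, 95% interval 0.18 to 1.16, unadjusted p = 0.0112, limma adjusted p = 0.779; exact permutation p = 0.0556). The most abundant partners, *Clstn3* (a calsyntenin, 321 ± 24.6 TPM in DscamKO and 349 ± 35.4 TPM in Control, SD, n = 5 each) and *Ppp1ca* (a protein phosphatase 1 catalytic subunit, 274 ± 10.4 TPM in DscamKO and 304 ± 40.4 TPM in Control), had log2 fold changes of -0.12 and -0.14 with limma adjusted p of 0.786 and 0.779.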

How the data were processed

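Cerebellar RNA of 5 DscamKO and 5 Control mice was prepared with a directional kit and sequenced by the authors, who used Trimmomatic (version 0.36) for trimming, HISAT2 (version 2.2.0) for alignment to GRCm38 and StringTie (version 1.3.6) for the deposited TPM (transcript levels scaled per library and length). The release of the authors' annotation is not given in the sources used here. Their read counts and DESeq2 results were not used.

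Gene symbols and positions came from GENCODE M21, which lacked 191 of the 53447 identifiers; all 35 members matched. The filter kept genes at 0.5 TPM or more in 5 or more libraries, and log2(TPM + 0.1) was fitted with limma (version 3.58.1, R version 4.3.3) with a variance trend, no covariates and Benjamini-Hochberg adjustment over all genes tested; the 0.1 TPM draws fold changes of low genes toward 0. The fit was tested on simulated data. Single genes were also compared by an exact two-sided permutation test over 252 divisions. Genes named by rule were *Dscam*, the 2 highest and the 2 smallest-p members per subfamily, members with an unadjusted p under 0.05, and of the partners the 3 smallest-p and 2 highest; the other members were described after their values were seen. The symbol rule that gives the members uses no measured value, but this family and the lists were chosen with earlier results of these data known. Replicates are separate mice. Alternatives changed the added value, filter, scaling, gene types, covariates and libraries.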

Additional observations from a re-analysis of the deposited data

Results flagged for a closer look

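In groups of 5 libraries, 6 values of the members stood far from the other 4 of their genotype by Dixon's criterion, among the 66 groups of 5 member values that were not all 0. For normally distributed values chance alone gives about 1 in 20 (3.3), and TPM near 0 need not be so distributed. The 6 values were *Cdh4* in DscamKO 3 at 5.86 TPM (next value 3.94 TPM), *Cdh7* in DscamKO 4 at 1.13 TPM (next 8.20 TPM), *Cdh26* in DscamKO 2 at 0.187 TPM (the others listed at 0), *Pcdh20* in DscamKO 2 at 10.8 TPM (next 6.97 TPM), *Cdh18* in Control 5 at 1.22 TPM (next 17.1 TPM) and *Cdh23* in Control 4 at 2.23 TPM (next 0.325 TPM). With the other 4 values at 0, any *Cdh26* value above 0 would have been flagged, so that value carries no weight. Without DscamKO 3 the log2 fold change of *Cdh4* was -0.91, against -0.77 with all libraries. Control 5 was the lowest Control library for 12 of the 29 tested members (41.4%), beside 49.0% of all genes tested.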

How the results depend on the processing

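Over 23 alternatives, 1 of them (DscamKO 5 and Control 5 left out) chosen after seeing the data, 17 of the 29 tested members kept the sign of their log2 fold change. The number of all genes with an adjusted p under 0.05 (limma) was 0, but 2 with a filter of any TPM above 0 in 5 libraries, 2 without DscamKO 5 and Control 5, and 0 to 1 on leaving out each library in turn. Values that changed sign were, without Control 3 and 5, *Cdh2* at -0.054, *Cdh7* at -0.72, *Cdh10* at -0.13, *Cdh11* at -0.0073, *Cdh20* at -0.078 and *Pcdh17* at -0.0052; centred on the median, *Cdh2* at -0.030; with array weights, *Cdh7* at -0.33; and without DscamKO 5 and Control 5, *Cdh7* at -0.67. Leaving out each library in turn gave ranges across 0 for *Cdh1* (-0.47 to 0.0025), *Cdh2* (-0.016 to 0.16), *Cdh7* (-0.56 to 0.78), *Cdh8* (-0.39 to 0.031), *Cdh11* (-0.0011 to 0.29), *Cdh18* (-0.95 to 0.48), *Cdh20* (-0.020 to 0.19), *Pcdh10* (-0.20 to 0.074), *Pcdh12* (-0.10 to 0.64) and *Pcdh19* (-0.27 to 0.075). The cause was not tested. The median over the members was between -0.108 (without Control 3 and 5, where that of all genes was -0.094) and 0.171 (without Control 1). *Cdh12* was not tested under the filter of 1 TPM, and its unadjusted p passed 0.05 in the other alternatives except without Control 3 and 5. After the mean of its genotype was subtracted from each gene, same-numbered libraries correlated at 0.008 to 0.098 over all genes tested. The Control library with the highest such correlation was Control 2 for DscamKO 1, 2, 3 and 4 (0.020, 0.008, 0.044 and 0.058). For DscamKO 5 it was Control 5 (0.098). The paper used littermates as controls, but the replicate numbers are not stated to pair mice. Low correlations over all genes cannot exclude pairing. With the replicate number as a block, 0 genes passed the threshold and the members' median was 0.114. In that limma fit 3 members (*Cdh4*, *Cdh12*, *Cdh15*) had an unadjusted p under 0.05, beside 6.37% of all genes. TPM holds no read number, so counting error cannot be given.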
